A study of Rattus norvegicus with 12 samples.

Results

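Male Fischer 344 rats whose pituitary gland had been removed (hypophysectomy, the labels' Hypox) received 1 injection of growth hormone (GH), and their livers were compared with livers of hypophysectomised males given no hormone. The comparison rests on 2 of the 12 arrays of the study, a dye swap in which the same GH pool (4 livers, killed 30, 60 or 90 min after the injection) was hybridised on each array against a pool of 3 to 4 livers of untreated hypophysectomised males. All rats were 12 weeks old, and every rat of this comparison, controls included, lacked a pituitary. The other groups used here are hypophysectomised males given 2 injections 3 or 4 h apart (1 pool of 5 livers, also on both arrays of its dye swap) and intact males and females (pools of 3 to 4 livers). The sources used here do not give the kind or dose of GH, nor the time from surgery to injection.

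The labels call the arrays replicates 1 and 2. On array 1 the GH sample carried the green dye Alexa 555, and on array 2 the red dye Alexa 647. The channel label of array 1 leaves out the hormone, which its title names. Since 1 GH pool served both arrays, the spread between them holds labelling, hybridisation and, where the control pools differed, control livers, but not the spread between GH-treated rats. The times after injection are mixed in the pool and cannot be told apart. All values below are log2 ratios of GH-injected over untreated hypophysectomised males, positive where GH was higher, given for array 1 and then array 2, followed by the fitted value with its standard error (SE, n = 2 arrays). A probe is called where the limma fit over all 12 arrays gave an adjusted p under 0.05.

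GH binds its receptor on the hepatocyte and activates the kinase JAK2, which phosphorylates STAT5. Phosphorylated STAT5 enters the nucleus, binds to the consensus TTCNNNGAA and starts transcription of genes for growth factors, their binding proteins and feedback inhibitors. The pituitary releases GH in pulses in male rats and almost continuously in females, and many liver genes differ between the sexes because of that pattern. Hypophysectomy removes GH together with the other pituitary hormones, so that an injection shows the liver's early response from a state without GH.

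Of 26353 probes tested, 3762 (14.3%) were called, 1973 higher (7.49%) and 1789 lower (6.79%) after GH. Most of these differences were small: 75.3% of the called probes changed under 1.5-fold, while 193 (0.732%) rose and 105 (0.398%) fell at least 2-fold. With 1 probe per gene, 1024 of 11405 genes (8.98%) were called higher and 837 (7.34%) lower, and the median over all genes was -0.00065. These shares are the background against which the gene lists below are read. The lists were chosen with earlier results of these data known, so their counts are descriptions. Both arrays gave the same sign for 3740 of 3761 called probes with a value on each, and the 2 arrays' values differed by a SD of 0.30 over all probes tested. The call depends on the normalization: with median centring in place of loess the median residual SD rose from 0.103 to 0.369, and limma called 0 probes (997 at an unadjusted p under 0.05). Without replicate 1 the count was 629 and without replicate 2 it was 558. None of the 159 genes chosen for naming changed direction under any alternative tried. This is no test of their direction: they were chosen by their calls, and fits with another filter or no dye term could not change a sign. Among them, Fgb, Fgg, Hpx and Cyp2e1 had opposite signs on the 2 arrays.

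**Figure D1:**
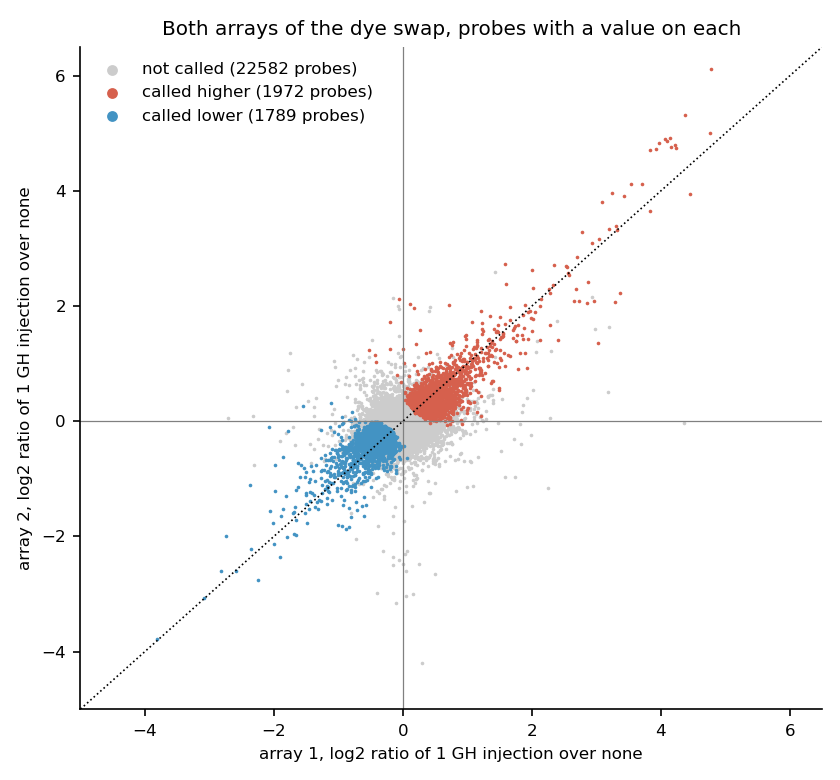
Log2 ratio of 1 GH injection over none on array 1 (x axis) and array 2 (y axis), 1 point per probe with a value on each array; called probes are coloured, and the dotted line marks equal values. Probes called higher or lower lie mostly in the quadrants where both arrays have the same sign (3740 of 3761).

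The genes with the largest rises were protease inhibitors, major urinary proteins and transcription factors. Serpina3c, a serine protease inhibitor secreted by the liver, had 4.78 and 6.12, a fitted value of 5.45 ± 0.32 or 43.7-fold (adjusted p = 7.82e-05). Its relative Spin2a had 3.97 and 4.83 (4.40 ± 0.49, adjusted p = 0.00112). Of 4 tested Spin2a probes, 3 were called higher, and the lowest value was -0.21. Both arrays thus put these inhibitors far above the untreated livers, by more on array 2.

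Mup5, a major urinary protein that carries pheromones in male urine, had 4.38 and 5.31 (4.85 ± 0.45, adjusted p = 4.78e-04). Probes named Mup4l4, Mup4l3, Mup4l1 and Mup4 had fitted values of 4.53, 4.51, 4.48 and 3.82, and the related Obp3 had 3.31 and 3.32 (3.32 ± 0.61, adjusted p = 0.0101). Genes of the Mup and Serpina3 families are close copies that 1 probe may read together, so these are not independent measurements. In hypophysectomised males, these genes had been far below their level in intact males: the log2 ratio of hypophysectomised over intact males was -6.99 for Serpina3c, -5.80 for Mup5 and -6.32 for Obp3.

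**Figure D2:**
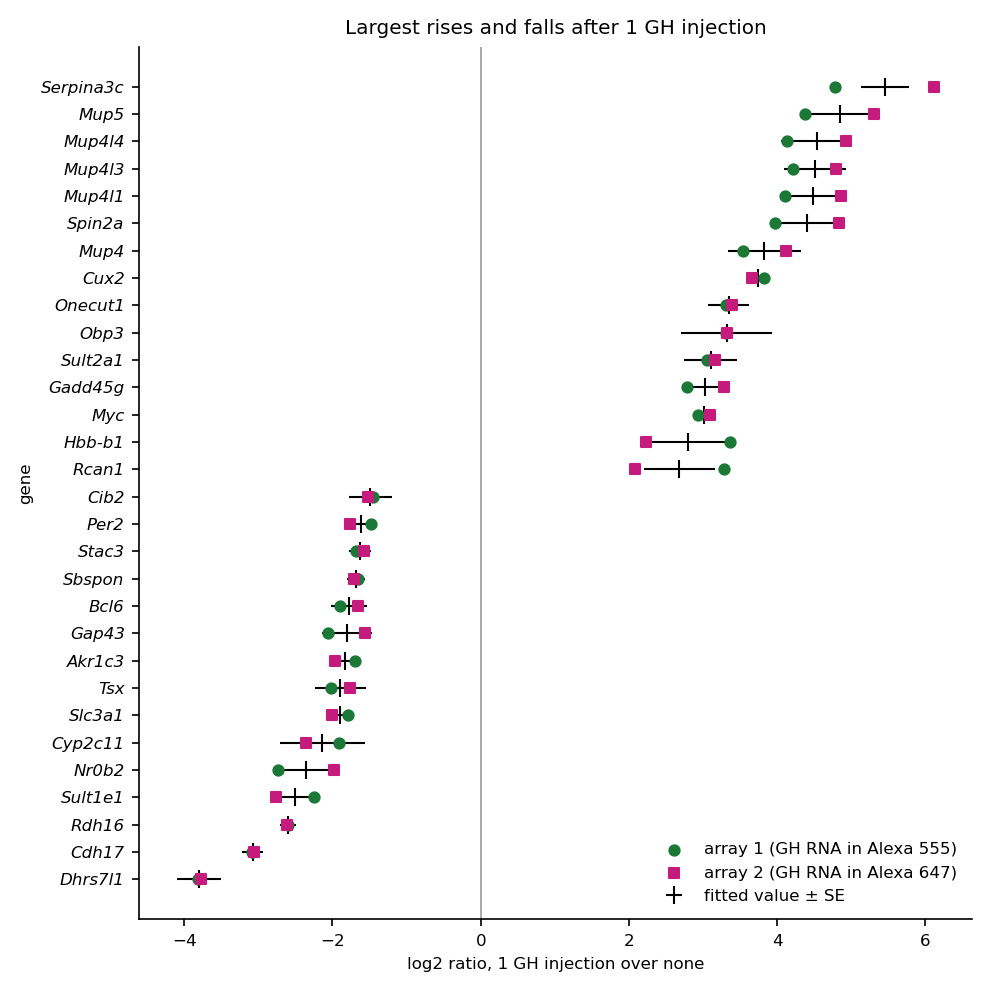
Log2 ratio of 1 GH injection over none (x axis) for the 15 genes with the largest rises and the 15 with the largest falls (y axis). Circles are array 1, squares array 2, and the bars are the fitted value with its SE; Serpina3c reached 4.78 and 6.12, and Dhrs7l1 lay at -3.81 and -3.78.

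Most tested genes of the list linked to STAT5 were higher, a list chosen with earlier results of these data known and no independent evidence. Of 19 genes linked to STAT5 in liver that were tested, 12 were called higher and 1 lower, against 8.98% and 7.34% of all genes, with a median of 1.01. Igf1, the circulating growth factor through which GH drives body growth, had 2.00 and 2.63 (2.31 ± 0.44, 4.97-fold, adjusted p = 0.0121). Its 4 tested probes were all called higher, with values from 1.33 to 2.56. Igfals, which encodes the subunit that holds IGF1 in its large serum complex, had 1.76 and 1.39 (1.57 ± 0.24, adjusted p = 0.00471).

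Of the 14 tested genes of the IGF axis, 3 rose and 1 fell. The binding protein gene Igfbp4 rose (0.69 and 0.82, fitted 0.76). Igfbp1, whose protein binds and holds back IGF1, fell (-0.99 and -0.49, fitted -0.74, adjusted p = 0.0468). The receptor genes Igf1r, Insr and Ghr had fitted values of 0.00, -0.17 and -0.43 and were not called. Igf1, Igfals and Igfbp1 lost their call when either array was left out, and Igfbp4 lost it without replicate 1.

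Feedback inhibitors of the pathway were higher on both arrays. Socs2, a suppressor of GH receptor signalling, had 2.01 and 2.31 (2.16 ± 0.13, 4.48-fold, adjusted p = 7.82e-05). Cish, another inhibitor of the SOCS family and a classical STAT5 target, had 1.00 and 1.02 (1.01 ± 0.08, adjusted p = 2.79e-04). Socs3 rose less, with 0.27 and 0.46 (fitted 0.37). Of 32 tested genes of JAK-STAT signalling, 9 rose and 1 fell, with a median of 0.05.

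Receptors that use the same kinase were among the risers: Lepr, the leptin receptor, had 2.15 and 2.13 (2.14 ± 0.16, adjusted p = 2.04e-04), and Prlr, the prolactin receptor, 1.75 and 1.39 (1.57 ± 0.19, adjusted p = 0.00186). The list's 1 called fall was Pias3, an inhibitor of STAT3 (-0.59 and -0.71, fitted -0.65). The signal carriers themselves, Jak2 (-0.02), Stat5a (-0.06) and Stat5b (0.27, adjusted p = 0.0527), were not called. Socs2, Cish, Lepr and Pias3 kept their calls with either array left out, and Prlr lost its call without replicate 1.

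The promoters of the genes called higher in the JAK-STAT and immediate early lists were searched on both strands. The search covered the 250 bases before the start in RefSeq's GRCr8 build. Of 20 such genes, 14 had an entry. TTCNNNGAA was present in 2 of the 14 (14.3%) and in 7.52% of 27457 promoters of the same length. Other motifs searched were TGANTCA (1 of 14, 6.36% of all), TGACGTCA (0 of 14, 1.70% of all), the serum response element known as the CArG box (1 of 14, 1.5% of all) and the GC box GGGCGG (7 of 14, 32.4% of all). Cish is shown because its upstream stretch holds 4 matches to the STAT5 consensus, starting 241, 230, 136 and 119 bases before the start, and Gadd45g because it had the largest rise of the 6 genes the rule chose, with none of these 5 motifs in its stretch. Both were picked for printing after the search. Capitals mark TTCNNNGAA, and the windows are chr8:116850719-116850968 (plus strand) for Cish and chr17:13530352-13530601 (minus strand) for Gadd45g.
Cish: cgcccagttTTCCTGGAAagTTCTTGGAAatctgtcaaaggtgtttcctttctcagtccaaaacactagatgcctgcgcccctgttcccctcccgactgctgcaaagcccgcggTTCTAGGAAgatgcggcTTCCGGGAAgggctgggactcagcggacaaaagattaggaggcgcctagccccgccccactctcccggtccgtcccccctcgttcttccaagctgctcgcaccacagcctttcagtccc
Gadd45g: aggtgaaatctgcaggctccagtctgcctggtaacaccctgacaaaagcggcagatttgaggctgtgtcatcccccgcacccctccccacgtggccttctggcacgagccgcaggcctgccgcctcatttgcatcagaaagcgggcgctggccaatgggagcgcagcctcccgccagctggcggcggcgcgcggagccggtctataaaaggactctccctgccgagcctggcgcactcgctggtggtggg

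The matches in Cish read TTCCTGGAA, TTCTTGGAA, TTCTAGGAA and TTCCGGGAA. In the stretch of Egr1 there were 2 CArG boxes, CCATATTAGG and CCATATATGG, starting 105 and 83 bases before the start. A GC box was found in the stretches of Cish and Gadd45a, starting 68 and 170 bases before the start. None of the 5 motifs was found in those of Lepr and Prlr, which says only that these letters are not in this window.

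Early growth-factor response genes rose, though not all of them. Myc, a driver of growth and ribosome production, had 2.93 and 3.09 (3.01 ± 0.07, 8.05-fold, adjusted p = 1.80e-06). Its probe was spotted 10 times, and the SD between spots was 0.04 on each array. The growth arrest and DNA damage genes Gadd45g (2.78 and 3.29, fitted 3.03 ± 0.26) and Gadd45a (2.68 and 2.30, fitted 2.49 ± 0.37) rose together with Rcan1, an inhibitor of calcineurin (3.28 and 2.08, fitted 2.68 ± 0.48).

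Egr1, a zinc-finger factor induced by MAP kinase signalling, had 2.41 and 1.42 (1.91 ± 0.36, adjusted p = 0.0117), and Jun, a subunit of AP-1, had 1.79 and 0.91 (1.35 ± 0.32, adjusted p = 0.0295). Their 10 spots agreed within SDs of 0.02 to 0.05 on each array, so the gap of these genes between arrays was far larger than between spots. Of 54 tested immediate early genes, 12 were called higher and 4 lower, with a median of 0.12. Junb (0.34) and Fosb (0.02) were not called. Rgs3, a brake on G-protein signalling, was the largest of the 5 risers among 17 genes of MAP kinase feedback (1.67 and 1.76, fitted 1.71 ± 0.22), and limma called 0 of that list lower (0 at an unadjusted p under 0.05).

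With an array left out, Myc and Gadd45g kept their calls in both fits. Gadd45a, Rcan1, Egr1 and Jun lost theirs in both, and Rgs3 lost its call without replicate 1.

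Liver transcription factors changed in both directions, more of them downward: 7 of 44 rose and 15 fell, with a median of -0.13. Cux2, a repressor known from female liver, had 3.83 and 3.66 (3.74 ± 0.13, 13.4-fold, adjusted p = 5.32e-06). A second Cux2 probe had 0.09. Onecut1, also known as HNF6 and an activator of female-type genes, had 3.31 and 3.39 (3.35 ± 0.28, adjusted p = 3.12e-04). Both arrays agreed closely on these factors.

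Bcl6, a repressor that binds many STAT5 sites and is higher in male liver, fell (-1.90 and -1.65, fitted -1.77 ± 0.24, adjusted p = 0.00303). So did Nr0b2, the co-repressor SHP of bile acid control (-2.74 and -1.99, fitted -2.36 ± 0.37), Tbx3 (-1.51 and -1.28, fitted -1.39 ± 0.15) and Klf15, a regulator of amino acid breakdown (-1.15 and -1.05, fitted -1.10 ± 0.12). The clock gene Per2 fell (-1.48 and -1.76, fitted -1.62 ± 0.21), as did Bhlhe41 (fitted -1.18) and Dbp (fitted -0.62), and these were the 3 called falls among 17 circadian genes. Cux2, Onecut1, Tbx3 and Klf15 kept their calls with either array left out. Bcl6, Nr0b2, Per2, Bhlhe41 and Dbp lost theirs in both fits.

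Genes of BMP and TGF-beta signalling changed in both directions. Of 40 tested, 9 fell, 5 rose and 26 were not called, with a median of -0.06. Id1, which blocks basic helix-loop-helix factors and is a direct BMP target, had -1.51 and -1.24 (-1.38 ± 0.17, adjusted p = 0.00184). Bambi, a decoy receptor, had -1.46 and -1.05 (-1.26 ± 0.10), and Smad7, the pathway's inhibitory SMAD, -0.88 and -1.20 (-1.04 ± 0.08). Id4 (-0.84) and the ligand gene Bmp4 (-0.98) also fell. Id3, a BMP target like Id1, rose (0.38 and 0.76, fitted 0.57), as did Grem1, an antagonist of BMP ligands (1.49 and 0.58, fitted 1.04). A second Grem1 probe had 0.10 and was not called. The inhibitory SMAD gene Smad6 had a fitted value of -0.08 and was not called. Bambi, Smad7 and Id4 kept their calls with either array left out, Id1 lost its call without replicate 1, and Bmp4 and Grem1 lost theirs in both fits.

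Genes that differ between intact male and female rats responded to the injection. The sex comparison used no RNA of the GH comparison, although both lie in 1 fit with a shared estimate of spread. In the sex comparison 8.06% of probes were called higher and 7.42% lower in males, and among the 24880 probes also tested after GH, 7.96% were higher in intact males and 7.35% higher in intact females. Of 1761 probes that fell after GH, 511 (29.0%) were male-higher and 102 (5.79%) female-higher. Of 1929 that rose, 508 (26.3%) were female-higher and 180 (9.33%) male-higher. Read from the other side, the 511 are 25.8% of all male-higher probes and the 508 are 27.8% of all female-higher probes.

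Among the 102 probes of this overlap that fell at least 2-fold, 64 (62.7%) were male-higher and 6 (5.88%) female-higher. At least 2-fold differences between the sexes were found for 1.23% (males higher) and 0.887% (females higher) of probes, and 2-fold responses to GH for 0.929% (rises) and 0.456% (falls) of genes. With 1 probe per gene and 2-fold limits on both comparisons, 24 genes that fell were male-higher, 2 were female-higher and 24 showed no such sex difference. Of genes that rose 2-fold, 14 were female-higher, 13 male-higher and 73 neither. These counts mix, on the male-higher side, the urinary proteins that rose and the enzymes described next that fell.

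The list of male-biased liver genes, which was chosen with these data known and is no independent evidence of its direction, had 15 of 25 members called lower and 5 higher, with a median of -0.66. Dhrs7l1, a short-chain dehydrogenase, had the largest fall (-3.81 and -3.78, fitted -3.80 ± 0.30, adjusted p = 2.40e-04). Cdh17, a cadherin of liver and intestine, had -3.09 and -3.06 (-3.08 ± 0.14, adjusted p = 2.35e-05), with a second probe at -1.58. Rdh16, a retinol dehydrogenase, had -2.60 and -2.61 (-2.60 ± 0.11, 6.07-fold lower, adjusted p = 1.26e-05). Sult1e1, which inactivates estrogens by sulfation, had -2.25 and -2.76 (-2.50 ± 0.32). Cyp2c11, the main male-specific P450 of rat liver, had -1.91 and -2.36 (-2.14 ± 0.57, adjusted p = 0.0428).

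Intact males had far more of each of these transcripts than intact females: the log2 ratio of males over females was 4.70 for Dhrs7l1, 6.98 for Cdh17, 4.11 for Rdh16, 5.29 for Sult1e1 and 4.37 for Cyp2c11. The 5 members called higher were Mup5, Mup4, Obp3, Akr1c1 (3.03 and 1.36, fitted 2.20) and Sult1c3 (fitted 1.36). Rdh16, Cdh17, Dhrs7l1 and Mup5 kept their calls with either array left out. Sult1e1 lost its call without replicate 2, and Cyp2c11, Mup4 and Obp3 lost theirs in both fits.

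Of the 19 tested female-biased genes, 6 rose and limma called 0 lower (1 at an unadjusted p under 0.05), with a median of 0.49. This list, too, was chosen with these data known. Besides Cux2 they were Sult2a1, a hydroxysteroid sulfotransferase (3.05 and 3.16, fitted 3.1 ± 0.36), Ifi47 (2.53 and 2.70), Akr1b7 (2.57 and 2.58), the testosterone-reducing enzyme Srd5a1 (2.26 and 2.30, fitted 2.28 ± 0.19) and Prlr. Akr1b7 was not well above background in the untreated livers, and its rise is put at 5.73-fold or more. For this the GH level was set against the untreated level or, if higher, the array's lowest signal well above background. Cyp2c12, the main female-specific P450, had 0.77 and 1.12 (fitted 0.95, adjusted p = 0.158), and A1bg had 0.78 and 0.74 (fitted 0.76, adjusted p = 0.168), neither being called. Cux2, Ifi47 and Srd5a1 kept their calls with either array left out, Sult2a1 and Prlr lost theirs without replicate 1, and Akr1b7 lost its call in both fits.

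Further large falls lay outside the list. The amino acid transporter subunit Slc3a1 had -1.79 and -2.01 (-1.90 ± 0.19), the steroid dehydrogenase Akr1c3 -1.69 and -1.97 (-1.83 ± 0.10), Sbspon -1.65 and -1.71 (-1.68 ± 0.12) and Stac3 -1.68 and -1.58 (-1.63 ± 0.15). Gap43, known from growing nerve endings, had -2.06 and -1.55 (-1.81 ± 0.34), Tsx -2.02 and -1.76 (-1.89 ± 0.34) and the calcium-binding protein gene Cib2 -1.46 and -1.52 (-1.49 ± 0.29). Of these, Gap43, Tsx and Cib2 lost their calls in both fits with an array left out, and the others kept them. The Akr1c genes are close copies that 1 probe may read together.

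Interferon-responsive genes were higher in part: 15 of 36 tested rose and limma called 0 lower (0 at an unadjusted p under 0.05), with a median of 0.23. Ifi47, a GTPase that acts against intracellular pathogens, had 2.53 and 2.70 (2.62 ± 0.06, 6.13-fold, adjusted p = 1.80e-06). Its relatives Igtp (1.71 and 1.45, fitted 1.58 ± 0.05) and Irgm (1.32 and 0.96, fitted 1.14) followed, while the other called members lay between 0.26 and 0.77. Of 32 inflammatory and chemokine genes, 10 rose and 1 fell. Cxcl1, which draws neutrophils, had 1.59 and 2.74 (2.16 ± 0.35), and the adhesion molecule Icam1 fell (-0.48 and -0.70, fitted -0.59). Ifi47 and Igtp kept their calls with either array left out, and Irgm, Cxcl1 and Icam1 lost theirs in both fits.

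In the acute-phase list, 11 of 22 genes were called higher by limma and 0 lower (1 at an unadjusted p under 0.05), but the arrays disagreed. The median of the list was -0.19 on array 1 and 0.91 on array 2. The fibrinogen chain Fga had 0.18 and 1.96 (fitted 1.07), Fgb -0.21 and 1.72 (fitted 0.76) and Fgg -0.07 and 2.13 (fitted 1.03). The heme carrier Hpx had -0.21 and 1.26 (fitted 0.52). In these genes the sign or size turned with the dye, and the calls rest on the fitted dye term. Values of similar size on both arrays were found for Saa4, a serum amyloid A protein (1.34 and 1.84, fitted 1.59 ± 0.24), and A2m, a broad protease inhibitor (1.16 and 1.32, fitted 1.24 ± 0.22). The 20 hepatocyte secretory genes showed the same split, with medians of -0.38 and 0.70, and the albumin gene Alb had -0.52 and 0.37. Fga kept its call with either array left out, Fgg lost it without replicate 2, and Fgb, Hpx, Saa4 and A2m lost theirs in both fits.

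Genes of ribosome production rose together with Myc, by small amounts. Of 62 tested, 17 were called higher by limma and 0 lower (1 at an unadjusted p under 0.05), with a median of 0.16. Pprc1, a coactivator of growth-related transcription, had 1.21 and 0.86 (1.03 ± 0.11), Gnl3 (nucleostemin) 0.92 and 0.90 (0.91 ± 0.07), Ppan 0.86 and 0.67 (fitted 0.77), Gar1 0.83 and 0.68 (fitted 0.76) and Nop58 0.80 and 0.66 (fitted 0.73). The last 3 act in ribosome assembly or in small nucleolar RNA particles. All 5 kept their calls with either array left out. Among 24 genes of polyamine synthesis and growth, 4 rose, with Eif1a, a translation initiation factor, at 0.97 and 0.74 (0.85 ± 0.08) after Myc, and 2 fell.

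Among 38 genes of amino acid and endoplasmic reticulum stress, 11 rose and 3 fell. Dnajb9, a co-chaperone of the endoplasmic reticulum, had 1.33 and 1.42 (1.38 ± 0.10), the chaperone Hspa5 0.68 and 0.78 (fitted 0.73) and the transcription factor Atf4 0.87 and 0.38 (fitted 0.62). Ddit3, which encodes the stress factor CHOP, fell (-0.73 and -0.57, fitted -0.65), as did Cth of cysteine synthesis (fitted -0.75). Dnajb9, Atf4 and Ddit3 kept their calls with either array left out, and Hspa5 and Cth lost theirs in both fits.

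Cell cycle genes were higher in part: of 30 tested, 6 rose and 2 fell, with a median of 0.07. Mki67, a proliferation marker, had 0.99 and 0.95 (0.97 ± 0.13), Ccna2 0.59 and 0.80 (fitted 0.69) and Cdk1, the mitotic kinase, 0.68 and 0.68 (fitted 0.68). Top2a, which untangles DNA in dividing cells, had 0.49 and 0.61 (fitted 0.55), and a second probe had 0.26 and was not called. The sizes of these rises depended on the processing. With the software's processed signals the fitted values were 1.72 for Mki67, 1.29 for Ccna2, 1.07 for Cdk1 and 1.23 for Top2a. Aurkb fell (fitted -0.63). Mki67 and Ccna2 lost their calls without replicate 2, and Cdk1, Top2a and Aurkb in both fits.

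In lipid metabolism, 6 of the 28 genes of cholesterol synthesis fell and 2 rose. Hmgcs1, an early enzyme of that pathway, had -0.58 and -0.97 (fitted -0.78), Msmo1 had -0.57 and -0.49 (fitted -0.53) and Pmvk -0.46 and -0.48 (fitted -0.47). Fatty acid oxidation genes were lower in part: 8 of 27 fell and 1 rose, with a median of -0.17. The omega-hydroxylase Cyp4a8 had -1.52 and -0.98 (-1.25 ± 0.12), the peroxisomal enzyme Ehhadh -0.60 and -0.76 (fitted -0.68) and the medium-chain dehydrogenase Acadm -0.53 and -0.34 (fitted -0.44). The fatty acid transporter Cd36 was the member that rose (0.82 and 0.64, fitted 0.73). Its 10 spots had a SD of 0.90 on array 1 and 0.02 on array 2. Cyp4a8 kept its call with either array left out, and Hmgcs1, Msmo1, Pmvk, Ehhadh, Acadm and Cd36 lost theirs in both fits.

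Genes of glucose metabolism were called about as often as all genes, of which 8.98% were called higher and 7.34% lower. Of 36 tested, 2 rose and 3 fell: G6pc1, the last enzyme of glucose release, had -1.0 and -0.89 (-0.94 ± 0.19), Ppp1r3c, which targets a phosphatase to glycogen, -0.94 and -1.82 (-1.38 ± 0.33) and Tat, which breaks down tyrosine, -0.71 and -0.78 (-0.75 ± 0.10). Pck1, a gluconeogenic enzyme, had -0.17 and -0.76 and was not called. Of 29 genes of drug and bile acid metabolism, 2 rose and 5 fell. The canalicular export pump Abcc2 had 1.16 and 1.41 (1.28 ± 0.07), and Cyp3a9 had -1.01 and -1.16 (-1.09 ± 0.18). Cyp2e1, an alcohol-metabolising P450, was called at -0.64 although its arrays had -1.55 and 0.27.

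Genes under thyroid or glucocorticoid control gave 5 rises and 3 falls among 22. Dio1, which activates thyroid hormone, had 0.58 and 0.96 (fitted 0.77), and Serpina6, the corticosteroid-binding globulin, 0.83 and 0.58 (fitted 0.70). Abcc2 and Dio1 kept their calls with either array left out, Tat lost its call without replicate 2, and G6pc1, Ppp1r3c, Cyp3a9, Cyp2e1 and Serpina6 lost theirs in both fits. In fatty acid synthesis, 2 of 25 rose and 1 fell, the largest called being Mlxipl, a glucose-sensing factor also known as ChREBP (0.66 and 0.61, fitted 0.64).

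**Figure D3:**
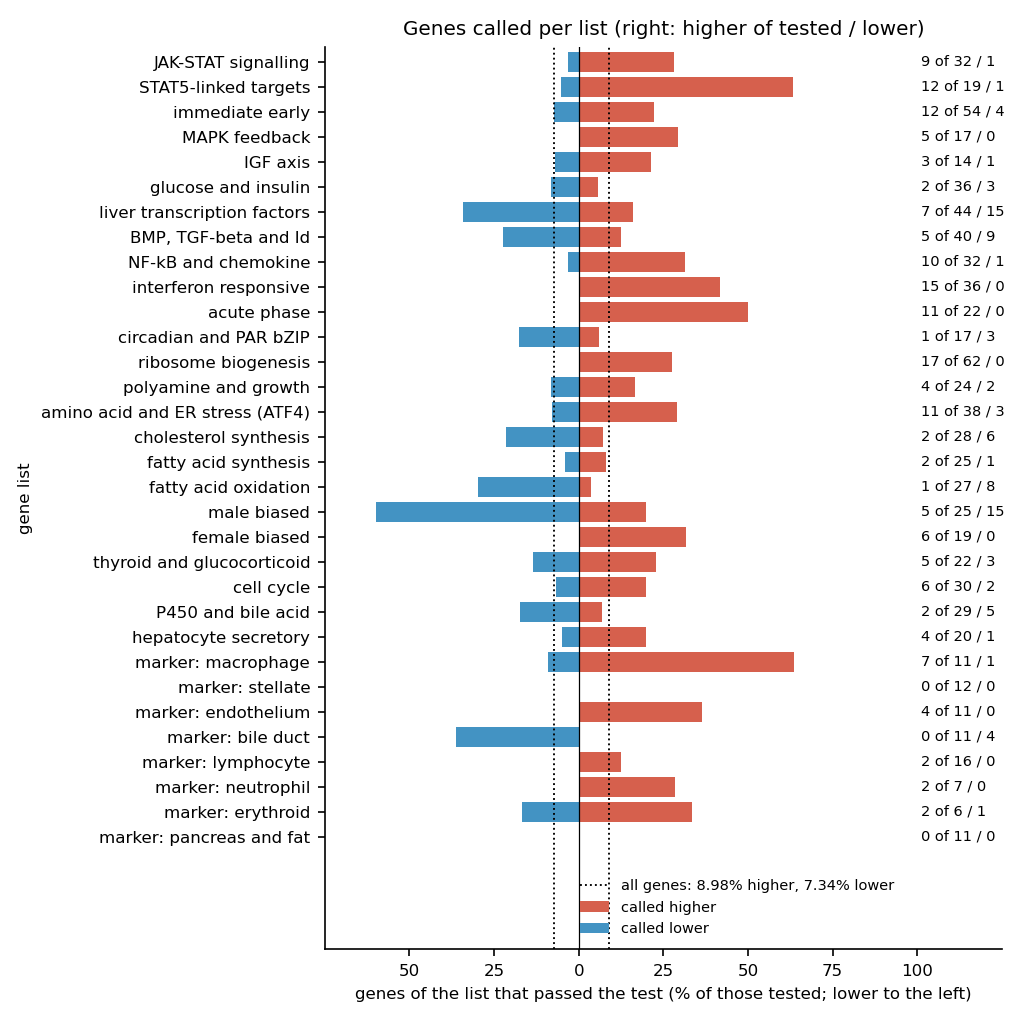
Share of the tested genes of each list that was called higher (right of 0) or lower (left of 0) after 1 GH injection, in percent of the genes tested; the numbers at the right give higher of tested and lower. Dotted lines mark the shares over all genes, 8.98% and 7.34%. STAT5-linked targets reached 12 of 19 higher and male-biased genes 15 of 25 lower. The lists were chosen with earlier results of these data known.

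The pool given 2 injections was set against the pool given 1 through the untreated males on both, so that the comparisons share that RNA. Of 26202 probes tested in both, 2720 (10.4%) differed, 1458 higher (5.56%) and 1262 lower (4.82%) after 2 injections. Again 0 were called with median centring (460 at an unadjusted p under 0.05, limma), and with 1 of the 4 arrays left out the count was 515 to 996. The times of killing after the last injection are not given for the 2-injection pool, and each group is 1 pool, so injections, time and pool cannot be told apart.

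Of the 105 probes that had fallen at least 2-fold after 1 injection, 27 were higher after 2 than after 1 and 6 lower. They were chosen by the value that this difference subtracts, which favours the higher side. Of the 105, 5 were called above the untreated males after 2 injections, a call that 15% of all probes received in that comparison. Both ratios share the untreated RNA, so the 15% is no fair background. The 3 named genes among these were Cdh17, Stac3 and Gstm3. Cdh17 went from -3.08 to 2.34 (difference 5.41 ± 0.20, adjusted p = 2.29e-05), Stac3 from -1.63 to 1.71 (difference 3.34 ± 0.22, adjusted p = 1.81e-04) and the glutathione transferase gene Gstm3 from -1.34 to 1.70 (difference 3.03 ± 0.21, adjusted p = 2.53e-04). Each is a male-higher gene, with log2 ratios of intact males over females of 6.98, 3.64 and 2.25. Gstm3 lies outside the rule for naming and was named after its values were seen.

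Of the 188 probes that had risen at least 2-fold and could be compared, 25 were higher and 26 lower after 2 injections. Of these 188, limma called 0 below the untreated males after 2 injections, against 15.8% of all probes. With the untreated RNA in both ratios their directions are not independent, and the 15.8% is no fair background. Socs2 rose further, from 2.16 to 3.28 (difference 1.12 ± 0.19, adjusted p = 0.00955), as did Ifi47, from 2.62 to 4.22 (difference 1.61 ± 0.09, adjusted p = 9.18e-05). Myc was lower after 2 injections, at 1.99 against 3.01 (difference -1.02 ± 0.11, adjusted p = 0.00156), and so was Lepr, at 1.05 against 2.14 (difference -1.09 ± 0.23). Igf1, Cish, Cux2, Onecut1 and Serpina3c were not called for a difference. The 95% confidence interval of the difference ran from -1.05 to 1.85 for Igf1, from -0.39 to 0.15 for Cish, from -0.30 to 0.55 for Cux2, from -0.62 to 1.21 for Onecut1 and from -0.88 to 1.23 for Serpina3c, so differences of these sizes are not excluded. Cdh17, Stac3, Ifi47 and Myc kept their difference with each of the 4 arrays left out in turn, Socs2 in 1 of the 4 fits and Lepr in 0.

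**Figure D4:**
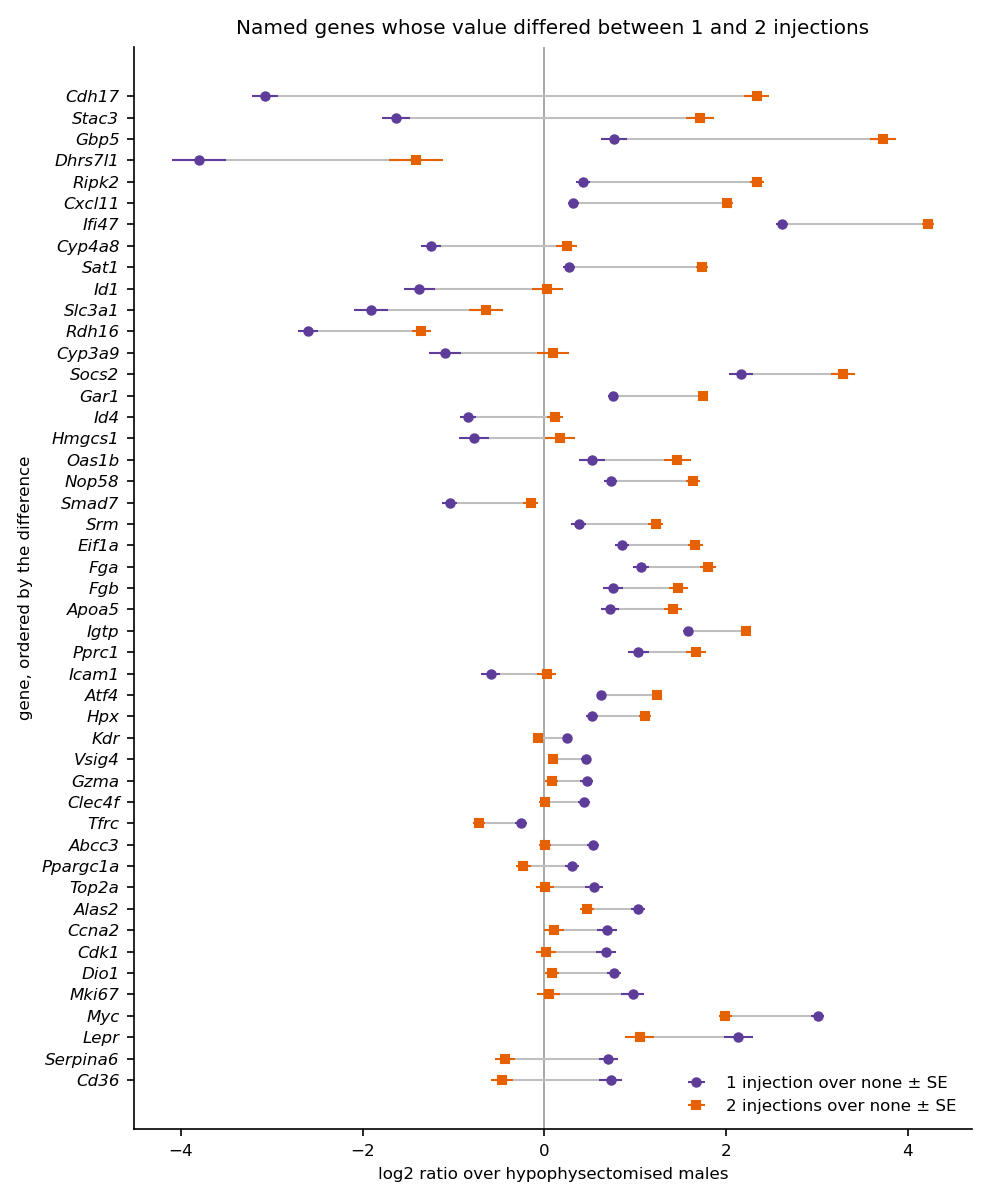
Log2 ratio over hypophysectomised males after 1 injection (circles) and after 2 injections (squares), with SE, for the 47 named genes called for a difference, ordered by its size. Cdh17 and Stac3 lie below 0 after 1 injection and above 0 after 2.

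All 20 hepatocyte secretory genes tested were well above background in both RNAs on both arrays. In whole tissue, fewer cells of a type and less RNA per cell cannot be told apart. Markers of other cells moved by small amounts. Of 11 macrophage markers, 7 were called higher, between 0.20 and 0.46, among them Vsig4 (0.49 and 0.42) and Clec4f (0.57 and 0.30), and Lyz2 was lower (-0.39). The summed level of that list was 16.94 and 16.95 on the log2 scale in the GH sample and 16.72 and 16.81 in the untreated samples. Of 11 endothelial markers 4 were called higher, but mainly on array 1: Oit3 had 0.63 and 0.08, Fcgr2b 0.45 and 0.08, Kdr 0.49 and 0.02 and Lyve1 0.38 and 0.08. Of 16 lymphocyte markers 2 rose (Gzmb and Gzma), and a second Gzmb probe had 0.07 and was not called. Of 11 bile duct markers 4 fell, Epcam by the most (fitted -0.58). Of 12 stellate and 11 pancreas or fat markers, limma called 0, with 5 stellate and 0 pancreas or fat markers at an unadjusted p under 0.05. The neutrophil genes S100a8 (0.87 and 0.66) and S100a9 (0.82 and 0.96) rose, as 2 of 7 of their list. Clec4f, Lyz2, Oit3, Fcgr2b, Kdr, Gzmb, Gzma, Epcam and S100a8 lost their calls when either array was left out. The part of these cells in the rises of chemokine and interferon genes was not tested.

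Globin and Alas2 transcripts were higher in the GH sample, while the other red cell markers of the list were lower or not called. The alpha globin gene Hba-a3, outside that list, had 2.01 and 1.78 (1.90 ± 0.33, limma adjusted p = 0.00795). Hbb, a beta globin chain, had 2.85 and 2.05 (2.45 ± 0.24, adjusted p = 6.21e-04), Hbb-b1 3.37 and 2.23 (2.80 ± 0.50), and Alas2, the heme synthesis enzyme of red cell precursors, 1.06 and 1.00 (1.03 ± 0.08). Of 6 erythroid markers, Hbb and Alas2 rose and Car1 fell (-0.69 and -0.87, fitted -0.78), with a median of -0.06. Slc4a1 (-0.19 and -0.31) and Epb42 (-0.46 and -0.91) were lower on both arrays but not called. Ahsp had 0.25 and 0.02 and was not called. The summed level of the list was 12.27 and 12.31 in the GH sample and 10.98 and 11.40 in the untreated samples. In hypophysectomised against intact males, Hbb-b1 had -4.13. Globin genes are close copies that 1 probe may read together, and Hbb and Alas2, but not Hbb-b1 and Car1, kept their calls with either array left out.

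Transcripts of striated muscle were also higher in the pool given 1 injection. The rule for genes well above background in only 1 of the 2 RNAs named 8 genes, all higher after GH: Akr1b7 and Glod5, and the sarcomere or muscle genes Myot, Myh6, Myoz2, Myl3, Tnni1 and Txlnb. Myot, which anchors actin at the Z-disc, had 1.15 and 1.01, and its rise was at least 1.98-fold. Myh6, a heavy chain of heart myosin, had 0.96 and 0.96. Its 1.95-fold is the fitted size and not a bound, since the measured untreated levels were used. A list of 66 muscle genes was drawn up after these values had been seen, and its counts are a description. Of its 45 tested members, 22 were called higher and 1, Ryr1, lower, with a median of 0.27, and 8 were well above background in the GH sample only. All 45 were well above background in the GH sample on both arrays, but only 33 in the untreated samples on both. The rest entered the test through the GH sample, which favours rises in the count and the median.

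The largest were Myl11, a fast myosin light chain (1.59 and 1.70, fitted 1.64), Myh7 (1.42 and 1.33), Ckm, the muscle creatine kinase (1.33 and 1.23), and the actin gene Acta1 (1.24 and 1.05). Both arrays gave nearly the same values. In the untreated samples, Myh7 and Ckm were well above background on 1 array only. After 2 injections the 13 of these 22 that could be compared lay between -0.13 and 0.36, Myl11 having -0.07 and Acta1 0.09, and the median of the list was -0.03. The summed level of the list was 13.78 and 13.82 in the GH sample and 13.49 and 13.60 in the untreated samples. Since 1 pool holds 4 livers, these data do not tell in how many of them the transcripts were raised. Their part in the other results was not tested. With an array left out, Myot, Myh6 and Myoz2 kept their calls in both fits, Glod5 lost its call without replicate 2, and Akr1b7, Myl3, Tnni1 and Txlnb lost theirs in both.

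**Figure D5:**
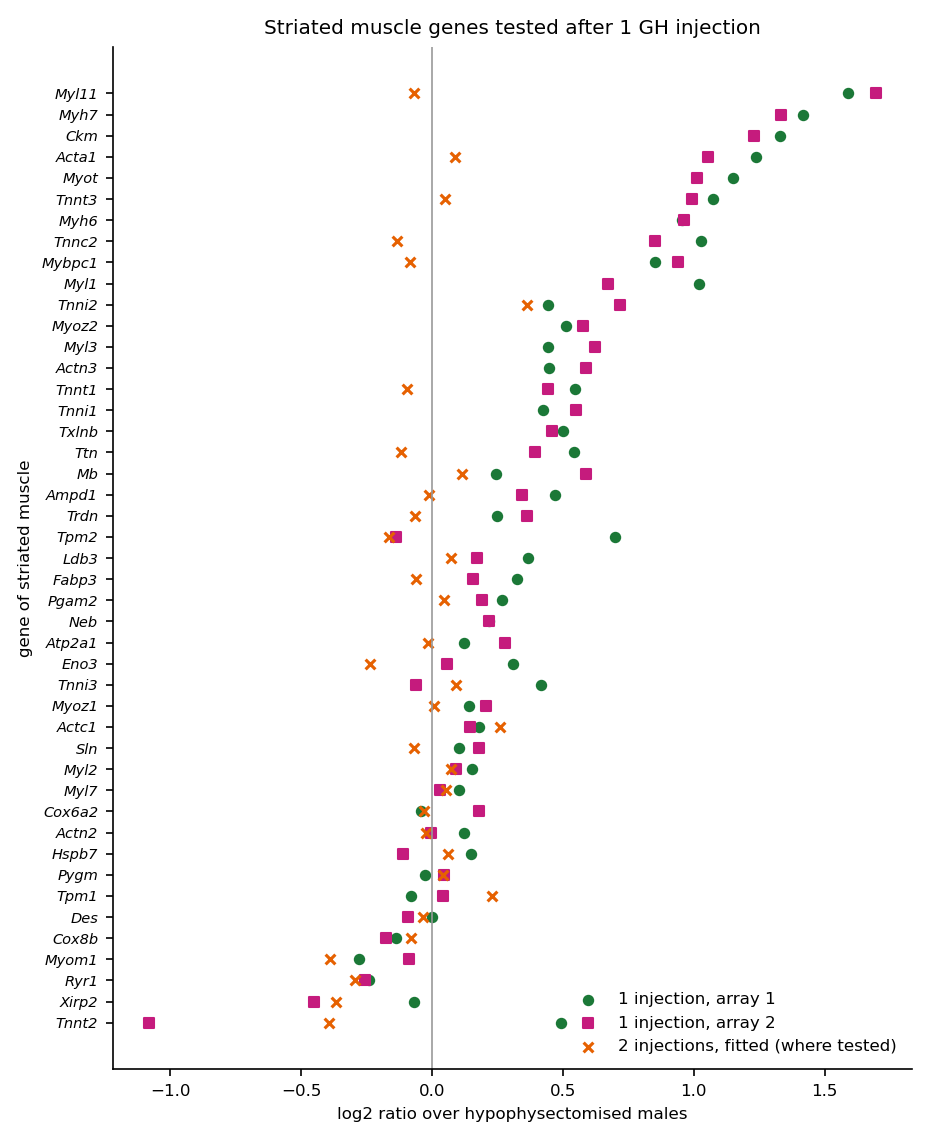
Log2 ratio over hypophysectomised males (x axis) for the 45 tested genes of a striated muscle list (y axis), on array 1 (circles) and array 2 (squares) after 1 injection and as the fitted value after 2 injections (crosses, where tested). Myl11 has 1.59 and 1.70 after 1 injection and -0.07 after 2.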

How the data were processed

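Liver RNA was hybridised to 12 two-colour Agilent-014879 arrays, read with Feature Extraction 9.1.3.1 per the file headers. For 45018 spots an array, the scanner files deposited by the authors give each dye's mean intensity and the intensity around the spot, the software's processed signals with the log10 ratio of red to green, and flags (a score of 0 or 1) for spots above background, per the file headers. The deposited value matrix holds, as found from its values, the log2 ratio of the processed signals (channel 2 over channel 1).

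In limma 3.58.1 (R 4.3.3, with the package data.table at 1.17.8), normexp with an offset of 50 removed background, a loess curve per array removed the trend with brightness, control spots (1639) and outlying spots were left out, and every ratio was turned to channel 2 over channel 1. Probes were tested if either RNA, on each of its arrays, was flagged well above background. Between 63.8% and 70.5% of probes were so in each RNA of the 2 arrays, and no spot was saturated. Precision is limited by how few arrays there are. All 12 arrays entered the limma fit, whose 7 coefficients were the 6 comparisons and a dye term, leaving 5 residual degrees of freedom. The threshold was a Benjamini-Hochberg adjusted p under 0.05. It was tested on simulated data. The 2-injection comparison and the alternatives used the same fit.

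Symbols came from RefSeq's gene list (GRCr8) or the files, for 19962 of 41012 probes. The brightest tested probe stands for a gene. The rule for naming took the 15 largest rises and falls with equal signs on both arrays, up to 6 called members of each of 24 pathway lists and 3 of each of 8 marker lists, Igf1, Socs2, Cish, Bcl6 and Onecut1, and 8 genes above background in 1 RNA only. Other genes given with values are members of these lists, named after their values were seen. Not all of the 159 genes so chosen are described, and 1 further gene is not reported here. Members and lists were chosen with earlier results of these data known. Whether same-numbered arrays of different comparisons share a pool is not known, and the fit took all arrays as independent.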

Additional observations from a re-analysis of the deposited data

Results flagged for a closer look

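Of the 153 named genes tested in both GH comparisons, 47 were called for a difference between 2 injections and 1, by the contrast in the limma fit. Of all 26202 probes tested in both, 10.4% were so called. The named genes were chosen mostly by their values after 1 injection, which the difference subtracts, so their count is no fair set against that share. Each number that follows is the log2 ratio over untreated hypophysectomised males after 2 injections minus that after 1.

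Some were lower than in untreated males after 1 injection and nearer to them, level or higher after 2: Cdh17 5.41, Stac3 3.34, Dhrs7l1 2.38, Cyp4a8 1.49, Id1 1.41, Slc3a1 1.26, Rdh16 1.25, Cyp3a9 1.19, Id4 0.95, Hmgcs1 0.95, Smad7 0.89 and Icam1 0.62.

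Others had risen after 1 injection and were higher still after 2: Gbp5 2.96, Ripk2 1.92, Cxcl11 1.69, Ifi47 1.61, Sat1 1.47, Socs2 1.12, Gar1 0.99, Oas1b 0.94, Nop58 0.91, Srm 0.85, Eif1a 0.81, Fga 0.74, Fgb 0.72, Apoa5 0.69, Igtp 0.64, Pprc1 0.63, Atf4 0.62 and Hpx 0.58.

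A further set had risen after 1 injection and was lower after 2: Kdr -0.33, Vsig4 -0.36, Gzma -0.39, Clec4f -0.43, Abcc3 -0.53, Ppargc1a -0.53, Top2a -0.54, Alas2 -0.56, Ccna2 -0.58, Cdk1 -0.66, Dio1 -0.68, Mki67 -0.92, Myc -1.02, Lepr -1.09, Serpina6 -1.14 and Cd36 -1.20. Tfrc, the transferrin receptor, had fallen after 1 injection and was lower still after 2, with a difference of -0.46. With each of the 4 GH arrays left out in turn, Atf4, Cdh17, Cxcl11, Cyp4a8, Gar1, Gbp5, Id4, Ifi47, Igtp, Myc, Nop58, Rdh16, Ripk2, Sat1 and Stac3 kept the call in every fit, and the others lost it in at least 1.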

How the results depend on the processing

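Settings were changed one at a time. For 1 injection against none, 3762 probes were called (1973 higher, 1789 lower). Median centring in place of loess left 0 (0 higher, 0 lower), with a smallest adjusted p of 0.058 and 997 probes at an unadjusted p under 0.05 in limma. The 4 GH arrays alone, which share 1 slide and scan, gave 12267 (6186 higher, 6081 lower) with 1 residual degree of freedom, the 2 arrays alone without a dye term 807 (496 higher, 311 lower), and all 12 arrays without a dye term 2106 (1152 higher, 954 lower). Leaving out 1 array gave 558 to 629 (359 to 425 higher, 199 to 204 lower), with a lone array assumed to vary like the others. The deposited processed signals gave 3084, the authors' deposited value matrix gave 3088, an offset of 10 3231, no filter 3395, the filter on both RNAs 3648 and the slide as a random block 3668, all within 1.5 times the count. The share called higher, 52.4% of calls, was 61.5% with the 2 arrays alone, 67.6% without replicate 1 and 64.3% without replicate 2, and lay between 50.4% and 54.7% in the others that made calls.

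With the replicate block the count was 3195 (1741 higher, 1454 lower), of which 3098 were calls of the reported fit in the same direction. The labels do not give which untreated pool was on which array of the 1-injection comparison, and the replicate numbers are not taken as a pairing. Deviations of same-numbered arrays correlated at 0.69 between the GH comparisons, which share a slide and the untreated hypophysectomised males. With hypophysectomised over intact males, these GH comparisons had -0.67 and -0.66. The pair of 1 injection and hypophysectomised over intact females, with no group in common, had -0.53. Over all 15 pairs of comparisons the range was -0.67 to 0.84. Sharing of pools was not tested, and the SEs of the reported fit do not allow for it. The block ended the call for 15 of the 159 named genes.

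For 2 injections against 1, 2720 probes were called, 0 with median centring (460 at an unadjusted p under 0.05, limma), 10689 with the 4 GH arrays alone and 515 to 996 with 1 of the 4 arrays left out. Processed signals gave 2556 and the replicate block 2231. None of the 159 named genes changed direction under any alternative, though they were chosen by their calls and several alternatives could not change a sign. All 159 lost their call with median centring, 16 with processed signals, 43 without the dye term, and 100 or 103 with replicate 1 or replicate 2 left out. The mean over all probes of a gene in place of the brightest moved 18 genes by more than 1 SE and 19 by less. Fitted sizes of some genes with low signal were much larger with processed signals. Myot had 4.26 in place of 1.08, Myh6 3.44 in place of 0.96 and Akr1b7 5.59 in place of 2.57. The causes of these changes were not tested.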
